A study of Lactuca sativa with 20 samples.

Results

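A set of 131 lettuce gene models was described. Their transcript levels were higher with the peptide CLE12p and the hormone abscisic acid (ABA) together than with ABA alone. With either agent alone, the group means had to stay within limits around the water and ethanol controls. For ABA alone that limit was as wide as the rise asked for, so the difference could include a fall with ABA. The set was taken from 37828 gene models measured by RNA sequencing in entire seedlings of lettuce (*Lactuca sativa*), variety Little Gem, kept for 2 h in a treatment solution. The 20 libraries fall into 7 groups. CLE12p with ABA, ABA, CLE12p with ACC, ACC, CLE12p alone and water had 3 libraries each, and 0.02% ethanol had 2. CLE12p, ABA and ACC were each used at 10 µM, also in the combinations. Where the library labels read CLE12p with ACC, the study's general description reads ABA with ACC; the labels were used. Every sample was a whole seedling preparation, so fewer cells of a type and less RNA per cell cannot be told apart. The labels do not say whether replicates were separate batches of seedlings, so that p-values measure only the spread between these libraries, which may be technical.

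CLE peptides are short secreted signals cut from precursor proteins. In Arabidopsis they are perceived at the cell surface by leucine-rich repeat receptor kinases. ABA is the plant hormone of water deficit, seed dormancy and senescence, and its binding to intracellular receptors holds back protein phosphatases that otherwise keep a family of protein kinases inactive. ACC is the compound that plants convert to ethylene, a gas that acts as a hormone in fruit ripening and senescence. The series title places CLE12p in the context of delayed senescence, a process that both hormones promote, and the groups that combine the peptide with a hormone ask what the peptide does beside each of them.

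The members were chosen from measured values. Reads were scaled to the library total as CPM, the count that a gene would have if the total were 1000000, and groups were compared as the difference of log2(group mean CPM + 1). A gene entered the set when its mean over all libraries was at least 1 CPM and CLE12p with ABA exceeded ABA by at least 0.4. CLE12p with ACC had to exceed ACC by less than 0.2. Against the 5 water and ethanol libraries pooled as controls, CLE12p alone had to stay within 0.3, and ACC and ABA alone within 0.4. The labels pair no treatment with either control, so the pool may hold libraries unmatched to a given treatment. Every CLE12p with ABA library also had to lie above every ABA library. Nearly every treatment contrast was therefore used to choose the genes, and the values in those contrasts are given as a description. The contrast of ethanol with water is the only one between groups that the choice did not use.

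Of 20479 gene models with a mean of at least 1 CPM, 131 met the rule, and all 131 passed the low-count filter of the count test. The limits cut through a continuous distribution. With a difference beside ABA of 0.402, Lsat_1_v5_gn_2_241 was just inside, and Lsat_1_v5_gn_0_7521 was just outside with 0.399. Without the minimum difference beside ABA, 1014 further genes met every other condition. Without the limit beside ACC the set would have gained 27 genes, without the limit for ABA alone 80, and without the limit for CLE12p alone 64. The nearest gene beyond the limit beside ACC had a difference of 0.203, against 0.199 for the nearest member. For ABA alone the values were −0.398 inside and −0.402 outside, for CLE12p alone 0.297 and 0.311, and for ACC alone −0.391 and 0.408. At the level limit the nearest member averaged 1.01 CPM and the nearest gene outside 0.970 CPM. In Lsat_1_v5_gn_6_840 the gap between the lowest CLE12p with ABA library and the highest ABA library was 0.00242 CPM, and in the nearest gene outside it was −0.00109 CPM, an overlap.

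The members were mostly genes of low level. Their mean over 20 libraries had a median of 5.61 CPM, against 17.1 CPM for all genes of at least 1 CPM. Below 2 CPM lay 28 members, 59 lay between 2 and 10 CPM, 33 between 10 and 50 CPM, and 11 at 50 CPM or more. The count table holds no gene names, and 0 of its identifiers matched the reference table, so neither function nor position is given for any member. No list of ABA, ethylene or senescence genes could be applied to the set for the same reason. Library totals were 18614220 to 27101622 counts.

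Seen library by library, the 131 genes were set apart in 2 groups of samples. The median member, expressed on the log2(CPM + 1) scale relative to the gene's own mean over 20 libraries, stood at 0.297, 0.398 and 0.259 in the CLE12p with ABA libraries, against −0.190, −0.182 and −0.177 in the ABA libraries. In CLE12p with ACC it stood at 0.0153, −0.0690 and −0.172, against 0.00480, 0.0632 and 0.0799 in ACC. In CLE12p alone it was 0.0871, 0.0725 and −0.0725, in ethanol −0.211 and −0.00284, and in water −0.00355, −0.0556 and 0.0303. The 3 ABA libraries stood at nearly the same level, and ethanol replicate 1 and CLE12p with ACC replicate 3 lay close to them. Among CLE12p with ABA libraries replicate 2 was the highest, and it was the highest of all 20 libraries for 50 members, against 21 each for replicates 1 and 3.

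**Figure D1:**
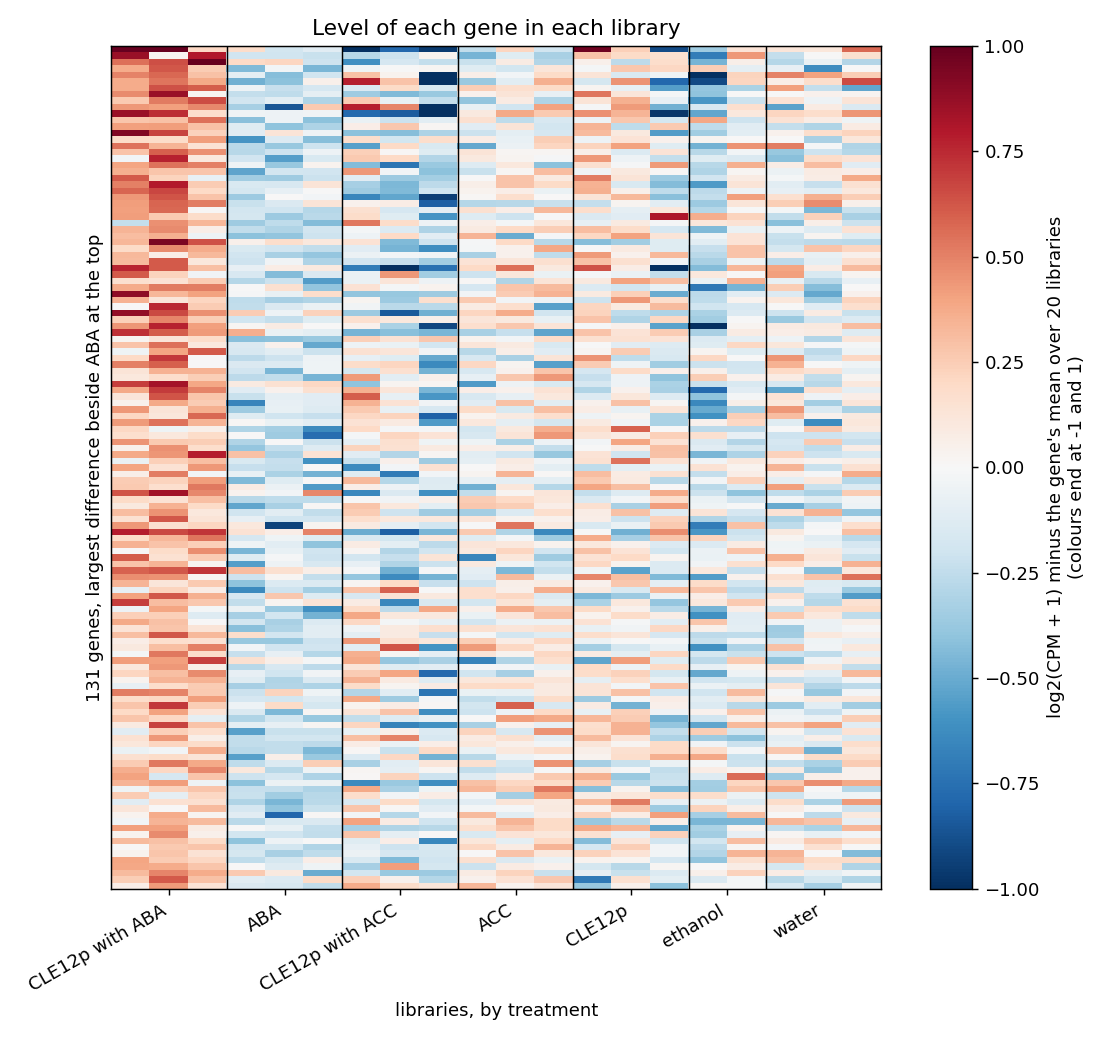
Each row is 1 of the 131 genes, ordered by the difference between CLE12p with ABA and ABA, and each column is 1 of the 20 libraries, with colour for log2(CPM + 1) minus the gene's mean over the 20 libraries and the scale ending at −1 and 1. The CLE12p with ABA columns are mostly red and the ABA columns mostly pale blue, while the other groups hold both colours.

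The difference of CLE12p with ABA over ABA ranged from 0.402 to 0.894 on the log2(group mean CPM + 1) scale, with a median of 0.481 and quartiles of 0.438 and 0.543. Over all genes of at least 1 CPM the median was −0.00205. Its parts relative to the controls are given as a description. Relative to the 5 control libraries, CLE12p with ABA was higher in all 131 members, by 0.0291 to 1.00 with a median of 0.337. It was higher by at least 0.4 in 48 members and by less than 0.2 in 25. The rule fixes the sign, since it asks for at least 0.4 over ABA and keeps ABA within 0.4 of the controls. ABA alone lay below the controls in 106 of 131 members, which is 80.9%, against 49.2% of all genes of at least 1 CPM. This share follows in part from the way the genes were chosen, since a low ABA mean helps a gene meet the rule. The members' median for ABA alone was −0.175, and 58 members lay at −0.2 or lower.

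**Figure D2:**
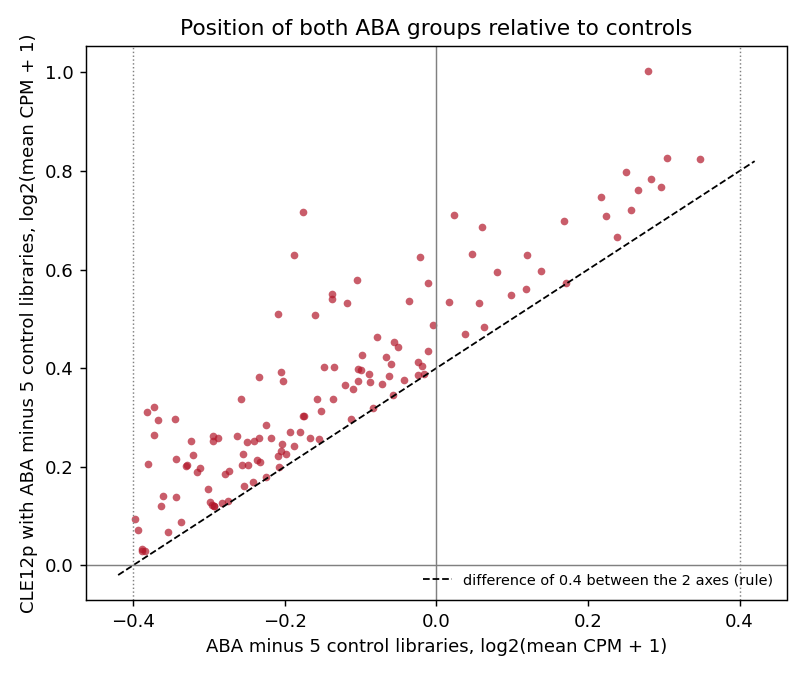
Each point is 1 of the 131 genes, with ABA minus the 5 control libraries on the horizontal axis and CLE12p with ABA minus the same libraries on the vertical axis, both as differences of log2(mean CPM + 1). The dashed line is the difference of 0.4 that the rule asks for and the dotted lines its limits for ABA alone, so the distance of a point above the dashed line is what the rule left free, and 106 points lie left of 0. Both axes subtract the same control libraries.

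The order of the groups differed among members. CLE12p with ABA had the highest of the 7 group means in 104 members, which is 79.4%, against 16.7% of all genes of at least 1 CPM. ABA had the lowest in 63 members (48.1%, against 17.3%), and CLE12p with ACC in 28 (21.4%, against 23.0%). All 3 CLE12p with ABA libraries lay above the 5 control libraries in 48 members, a pattern seen in 13.6% of all genes of at least 1 CPM. All 3 ABA libraries lay below the 5 controls in 13 members, beside a background of 12.0%. These shares follow in part from the way the genes were chosen.

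The gene with the greatest difference beside ABA was Lsat_1_v5_gn_2_45941. It had 12.5, 13.1 and 6.42 CPM with CLE12p and ABA, against 6.30, 4.65 and 4.93 CPM with ABA. CLE12p alone gave 11.6, 6.59 and 2.46 CPM, so that its highest library lay within the range of CLE12p with ABA, and water gave 5.99, 5.95 and 8.56 CPM. The groups of the main comparison were separated by little, since replicate 3 of CLE12p with ABA was barely above the highest ABA library. The edgeR log2 fold change was 1.02 ± 0.36 (SE), with a Benjamini-Hochberg adjusted p of 0.117 over all genes tested.

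Lsat_1_v5_gn_8_73220 had the next greatest difference. It stood at 42.2, 23.3 and 40.3 CPM with CLE12p and ABA, against 19.7, 19.7 and 19.4 CPM with ABA. Replicate 2 of CLE12p with ABA, the library that was the highest of all 20 for more members than any other, was here the lowest of its group and lay below the 28.0, 26.1 and 25.6 CPM of CLE12p alone. The edgeR log2 fold change over ABA was 0.85 ± 0.22 (SE, adjusted p = 0.0274).

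The most abundant member was Lsat_1_v5_gn_8_102821. It had 644, 648 and 592 CPM with CLE12p and ABA, against 444, 366 and 390 CPM with ABA. CLE12p alone gave 612, 405 and 580 CPM and water 411, 394 and 513 CPM, so that CLE12p alone overlapped with both groups that received ABA. The edgeR log2 fold change over ABA was 0.65 ± 0.14 (SE, adjusted p = 0.00678), and over CLE12p alone it was 0.20 ± 0.13 (SE, adjusted p = 0.393).

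The next in abundance was Lsat_1_v5_gn_1_35241, with 429, 328 and 266 CPM in CLE12p with ABA, against 220, 219 and 242 CPM in ABA. Water, at 276, 295 and 365 CPM, overlapped with CLE12p and ABA and lay above ABA in every library. Its edgeR log2 fold change over ABA was 0.59 ± 0.17 (SE, adjusted p = 0.0591).

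At the low end of the differences, Lsat_1_v5_gn_2_241 had 4.02, 5.45 and 4.26 CPM with CLE12p and ABA, against 3.34, 3.29 and 3.04 CPM with ABA. Lsat_1_v5_gn_1_51620 had 4.37, 5.90 and 4.54 CPM, against 3.20, 3.10 and 4.18 CPM. Neither passed the test (edgeR adjusted p = 0.141 and 0.251). The least abundant members rested on few reads: Lsat_1_v5_gn_7_7221 had 29, 38 and 34 counts with CLE12p and ABA, against 16, 16 and 14 with ABA, and Lsat_1_v5_gn_6_840 had 38, 17 and 31 counts, against 15, 17 and 13.

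**Figure D3:**
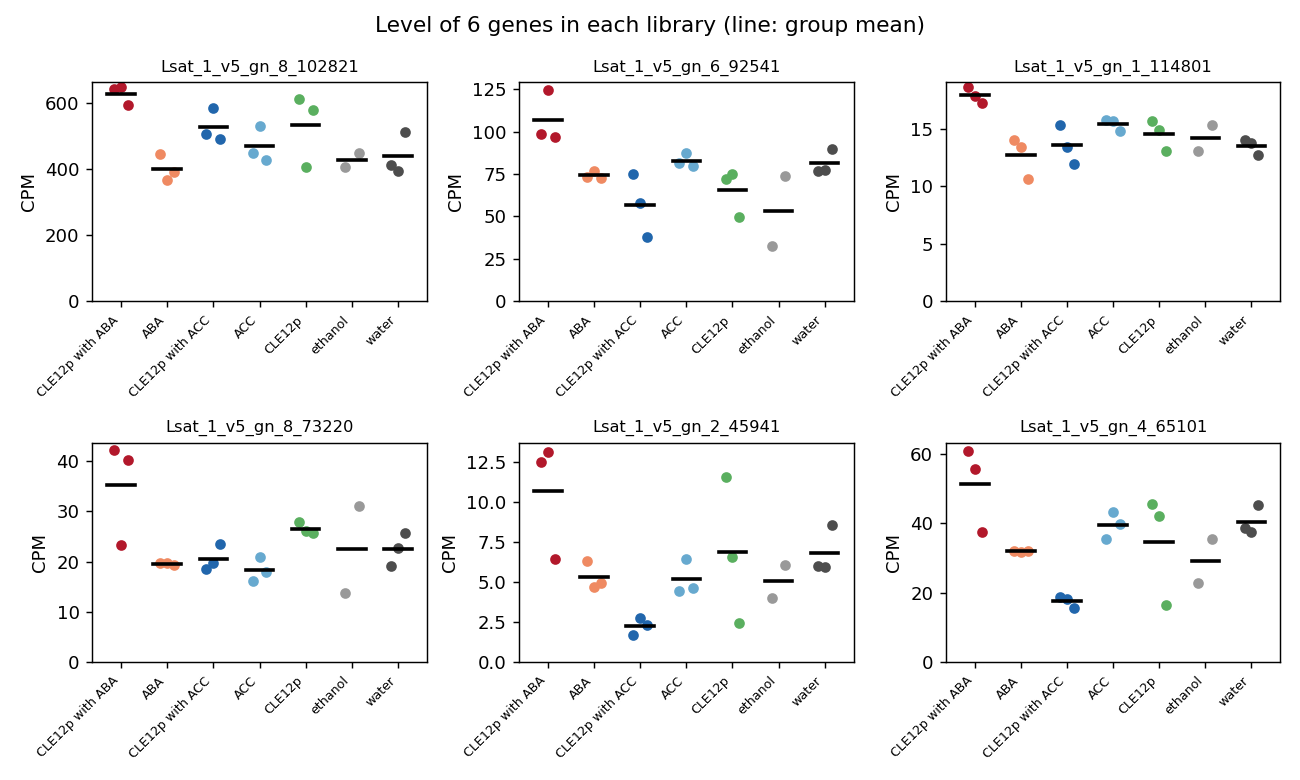
CPM of 6 named genes in each library, with 1 point per library and a line at the group mean, for the 7 groups. The 3 CLE12p with ABA points lie above all 17 others in Lsat_1_v5_gn_6_92541 and Lsat_1_v5_gn_1_114801, while in the other 4 genes at least 1 point of another group lies among or above them.

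In the count test, fitted to all 20 libraries, 30 of the 131 members were called higher in CLE12p with ABA than in ABA at an adjusted p below 0.05, and 2.65% of the 23413 genes tested were called higher. The rule used this contrast, so nothing is read from that count. The members' edgeR log2 fold changes ran from 0.419 to 1.17 with a median of 0.598 and a median standard error of 0.213. Of the 30 called genes 27 had a mean of at least 10 CPM and 0 a mean below 2 CPM. The count was 9 without CLE12p with ABA replicate 2, and 12, 17 and 14 without ABA replicates 1, 2 and 3. Over all genes tested, calls in either direction fell as well, from 919 to 381, 436, 505 and 523 in the same settings.

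In 20 members all 3 CLE12p with ABA libraries lay above every one of the 17 other libraries, and 1.02% of genes of at least 1 CPM had this pattern. Part of the pattern was asked for by the rule, which set the CLE12p with ABA libraries above every ABA library. These 20 had means of 1.24 to 75.5 CPM. The widest gap in CPM, a ranking that favours abundant genes, was that of Lsat_1_v5_gn_6_92541. It had 98.5, 124 and 96.9 CPM in CLE12p with ABA, against 73.4, 76.7 and 72.8 CPM in ABA. Water gave 77.0, 77.5 and 89.9 CPM, CLE12p alone 71.8, 75.2 and 49.6 CPM, and ethanol 32.7 and 74.0 CPM. The lowest library of CLE12p with ABA was thus 6.96 CPM above the highest other library, a water library. As a ratio this was 1.08, against 1.40 in Lsat_1_v5_gn_5_106521, a gene of 1.63 CPM named after its values were seen.

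Lsat_1_v5_gn_1_114801 had the next widest gap and the more even replicates. It had 18.7, 17.9 and 17.3 CPM with CLE12p and ABA, against 14.1, 13.4 and 10.7 CPM with ABA, and CLE12p alone gave 15.7, 15.0 and 13.1 CPM. Its edgeR log2 fold change over ABA was 0.50 ± 0.12 (SE, adjusted p = 0.0152). That of Lsat_1_v5_gn_6_92541 was 0.52 ± 0.21 (SE, adjusted p = 0.189), which did not pass although its libraries did not overlap.

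Whether the peptide's effect beside ABA differed from its effect alone was examined with the interaction, the log2 fold change of CLE12p with ABA over ABA minus that of CLE12p over water. None of the 131 members passed it in edgeR (0 called, smallest adjusted p = 0.407), and 0.00427% of the 23413 genes tested did. At an unadjusted p below 0.05 lay 43 members, which is 32.8%, against 7.85% of all genes tested. The rule set limits on both parts of this contrast, with the controls pooled, so that share is a description and nothing is read from it. DESeq2 also called 0 members, with 41 at an unadjusted p below 0.05. The members' interactions had a median log2 value of 0.52 and a median standard error of 0.303. All 131 were above 0, the smallest at 0.0642, a direction that the rule largely fixes. A rise beside ABA that is absent without ABA was therefore a property of the group means by which the genes were chosen, and the test did not establish it for any single member.

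With the peptide alone the members differed little from the controls, as the rule requires, and more of them lay above than below. CLE12p alone was above the controls in 89 of 131 members, with a median of 0.0912, against −0.0236 for all genes of at least 1 CPM, and 33 members stood at 0.2 or higher. Over water, 0 members were called in edgeR, where 5.34% of all genes tested were, and 14 members (10.7%) lay at an unadjusted p below 0.05, against 17.9% of all genes tested. Over CLE12p alone, CLE12p with ABA was called higher in 18 members (background 6.24%). Over ethanol, it was called higher in 34 members (background 7.79%). For ABA over ethanol 0 members were called (background 10.2%), with 15 (11.5%) at an unadjusted p below 0.05, against 20.9% of all genes tested. Since the labels pair no treatment with a control, ethanol for ABA was a choice. Water for CLE12p, ACC and the interaction was likewise a choice. For ACC over water 2 members were called higher (background 4.98%). These were Lsat_1_v5_gn_4_49401 at 25.1, 23.3 and 23.3 CPM in ACC, against 17.4, 19.7 and 18.6 CPM in water, and Lsat_1_v5_gn_2_102781 at 26.4, 23.4 and 25.7 CPM, against 19.2, 21.4 and 20.8 CPM. Both names were picked after their values were seen. These comparisons share libraries with each other. The rule used their groups, keeping single agents near the controls and CLE12p with ABA high, so shares below or above the background are a description.

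Ranked by log2 value alone, the greatest interactions belonged to genes of about 1 CPM, with standard errors above the members' median of 0.303. That of Lsat_1_v5_gn_1_125881 was 1.38 ± 0.56 (SE, edgeR adjusted p = 0.579) on 53, 33 and 24 counts in CLE12p with ABA, against 19, 13 and 20 in ABA. That of Lsat_1_v5_gn_7_7221 was 1.29 ± 0.55 (SE, adjusted p = 0.599).

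**Figure D4:**
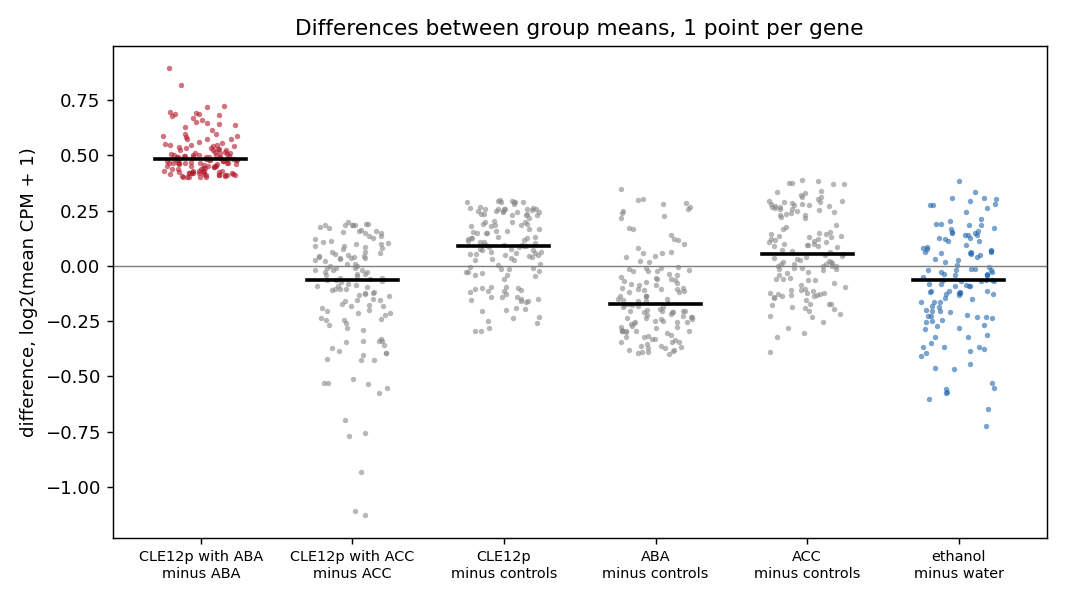
Differences between group means as log2(mean CPM + 1), with 1 point for each of the 131 genes and a line at the median, for 6 contrasts, where controls are the 5 water and ethanol libraries. The medians are 0.481 for CLE12p with ABA minus ABA, −0.0651 for CLE12p with ACC minus ACC, 0.0912 for CLE12p, −0.175 for ABA and 0.0558 for ACC minus controls, and −0.0649 for ethanol minus water, a contrast on which the rule set no limit.

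Beside ACC the members did not share a single level. The rule capped the rise beside ACC and set no limit to a fall, and the difference of CLE12p with ACC over ACC ran from −1.13 to 0.199 with a median of −0.0651, against −0.0161 for all genes of at least 1 CPM. It was below 0 in 83 members, at −0.2 or lower in 39, and at −0.4 or lower in 16. All 3 CLE12p with ACC libraries lay below all 3 ACC libraries in 25 members (19.1%), a pattern seen in 12.6% of genes of at least 1 CPM. In edgeR 5 members were called lower (background 1.73%) and 0 higher (background 3.26%).

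The greatest fall was that of Lsat_1_v5_gn_4_65101. It had 18.9, 18.1 and 15.6 CPM with CLE12p and ACC, against 35.5, 43.3 and 39.8 CPM with ACC. With CLE12p and ABA it had 61.0, 55.8 and 37.5 CPM, against 32.0, 31.8 and 32.2 CPM with ABA. The libraries overlapped in neither pair. CLE12p alone was uneven at 45.7, 42.0 and 16.4 CPM, and water had 38.6, 37.4 and 45.3 CPM. The edgeR log2 fold change beside ACC was −1.16 ± 0.25 (SE, adjusted p = 0.00627), and that beside ABA was 0.69 ± 0.24 (SE, adjusted p = 0.112).

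Lsat_1_v5_gn_5_50601 followed, with 6.90, 5.38 and 6.61 CPM in CLE12p with ACC, against 13.7, 17.8 and 12.7 CPM in ACC. In CLE12p with ABA it had 20.7, 18.5 and 14.8 CPM, against 11.1, 12.5 and 12.7 CPM in ABA. Here too the libraries of CLE12p alone lay far apart, at 18.9, 12.5 and 3.38 CPM. The edgeR log2 fold change beside ACC was −1.20 ± 0.34 (SE, adjusted p = 0.0416). In Lsat_1_v5_gn_2_45941, described above, CLE12p with ACC gave 1.66, 2.72 and 2.31 CPM, against 4.41, 6.46 and 4.63 CPM in ACC (log2 fold change −1.19 ± 0.39, SE, edgeR adjusted p = 0.0931).

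The difference between the peptide's effect beside ABA and beside ACC was tested directly. In edgeR 14 members were called higher (background 0.666%), with a direction that the rule fixes, since it asks for a rise of at least 0.4 in one pair and below 0.2 in the other. The rule used both pairs, so the count and the adjusted p-values are a description. The log2 difference was 2.21 ± 0.53 for Lsat_1_v5_gn_2_45941 (SE, adjusted p = 0.0444) and 1.85 ± 0.34 for Lsat_1_v5_gn_4_65101 (SE, adjusted p = 0.0162). The count depended on single libraries. It was 0 without ABA replicate 1, 1 without ACC replicate 2, and 5 without either ABA replicate 2 or CLE12p with ABA replicate 2. It was 6 and 4 without CLE12p with ACC replicates 2 and 3, 8 and 9 without ACC replicates 1 and 3, and 9 without ABA replicate 3. Over all genes tested, calls in either direction fell as well, from 253 to 11 without ABA replicate 1 and 23 without ACC replicate 2. They were 42 without ABA replicate 2, 48 without CLE12p with ABA replicate 2, and 45 to 110 in the other settings named here.

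The 16 members with a fall of 0.4 or more beside ACC, a division made after the values were seen, also varied together between replicates. Their median relative to the 20-library mean was 0.490, 0.642 and 0.268 in CLE12p with ABA, against −0.0618, −0.0554 and −0.0318 in ABA. It was −0.389, −0.459 and −0.546 in CLE12p with ACC, against 0.0507, 0.259 and 0.127 in ACC. Among the remaining libraries it was 0.293, 0.103 and −0.438 in CLE12p alone and −0.346 and 0.0464 in ethanol, so that CLE12p replicate 3 lay within the range of CLE12p with ACC and ethanol replicate 1 just above it. In water it was 0.0389, 0.0788 and 0.275. The mean correlation between pairs of these 16 genes, computed on deviations from group means over 20 libraries, was 0.397, against 0.0720 for the other 115 members and 0.0191 for all genes of at least 1 CPM. All of these correlations share the same libraries and totals. With ABA alone these 16 genes lay near their mean, while the other 115 members were at −0.197, −0.195 and −0.194 in the ABA libraries. Which libraries of a group were high or low thus moved with these values, and its part in them was not tested.

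**Figure D5:**
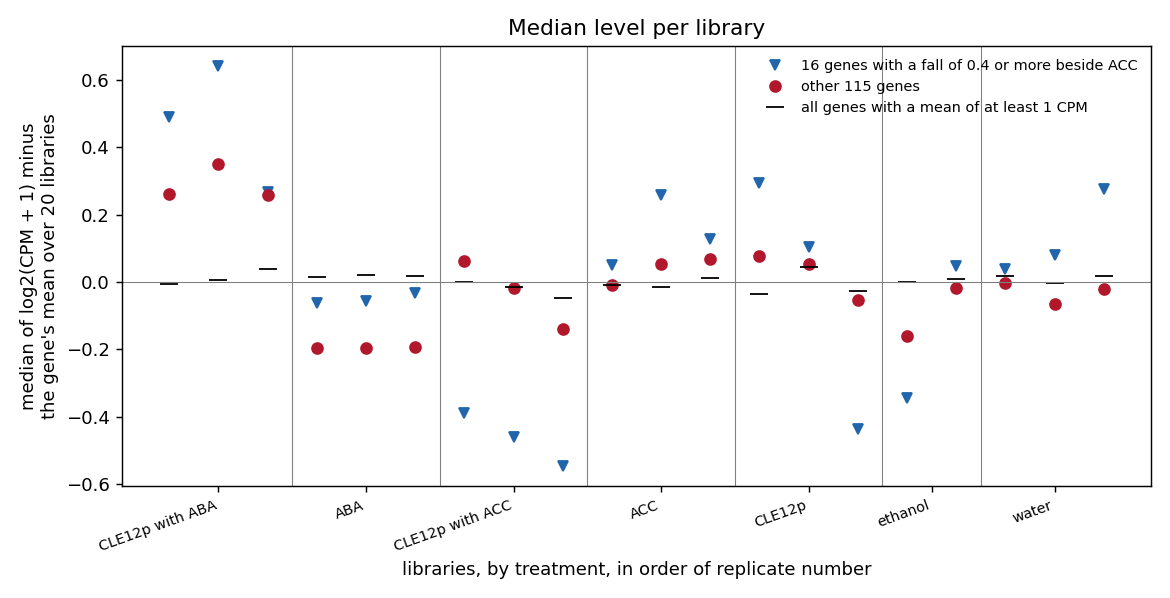
Median over genes of log2(CPM + 1) minus the gene's mean over 20 libraries, in each library, for the 16 members with a fall of 0.4 or more beside ACC (triangles), the other 115 (circles) and all genes of at least 1 CPM (bars). The triangles are high in CLE12p with ABA and low in CLE12p with ACC, CLE12p replicate 3 (−0.438) and ethanol replicate 1 (−0.346), while the circles are low in the 3 ABA libraries and the bars stay near 0.

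The contrast of ethanol with water, on which the rule set no limit, gave no call. Both groups did enter the choice of genes as pooled controls. In edgeR 0 members passed (smallest adjusted p = 0.919), as did 0.0% of all genes tested. At an unadjusted p below 0.05 lay 9 members (6.87%, against 5.34% of all genes tested), all 9 of them lower in ethanol, and DESeq2 called 0 with 8 at an unadjusted p below 0.05. On the log2(mean CPM + 1) scale ethanol lay below water in 82 of 131 members (62.6%), against 51.8% of all genes of at least 1 CPM, with a median of −0.0649 against −0.00602. The size rested on single libraries. The members' median edgeR log2 fold change was −0.0759. Leaving out ethanol replicate 1 gave −0.0133, leaving out replicate 2 of the same group −0.179, and leaving out water replicate 3 −0.0120.

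The clearest single difference between the controls was that of Lsat_1_v5_gn_7_53001, with 2.18 and 2.18 CPM in ethanol, against 4.50, 4.31 and 3.13 CPM in water. The libraries did not overlap, and the edgeR log2 fold change was −0.86 ± 0.25 (SE, adjusted p = 0.919). Lsat_1_v5_gn_9_59420 had 0.678 and 1.07 CPM in ethanol, against 2.14, 1.50 and 1.75 CPM in water (log2 fold change −1.02 ± 0.44, SE, edgeR adjusted p = 0.919). In the other direction Lsat_1_v5_gn_5_81821 had 1.79 and 1.54 CPM in ethanol, against 0.836, 1.54 and 0.736 CPM in water, with a log2 fold change of 0.68 ± 0.47 (SE, edgeR adjusted p = 0.929). None of the 3 passed the test after adjustment over all genes. With water alone as control 119 genes met the rule, 105 of them members, and with ethanol alone 110, of which 87 were members.

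Replicates of the members were less alike than those of genes in general. The median standard deviation of log2(CPM + 1) within a group was 0.177 in CLE12p with ABA for members, against 0.134 for all genes of at least 1 CPM. It was 0.128 against 0.0999 in ABA, and 0.210 against 0.149 in CLE12p alone, the greatest for members of all 7 groups. The members were also lower in level than genes in general, and the part of level in this spread was not tested. The log2(group mean CPM + 1) scale shrinks the differences of low genes. Members below 2 CPM had a median difference beside ABA of 0.486 on it and 0.815 as an edgeR log2 fold change, while members of at least 10 CPM had 0.513 and 0.528. In 23 members the gap between the CLE12p with ABA and the ABA libraries was under 0.2 CPM.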

How the data were processed

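The authors deposited raw counts of reads for each gene model, unscaled and with a column for every library; 0 columns were left unused. Per the labels' protocols, RNA was extracted from frozen seedlings with DNase digestion and made into Illumina libraries. The submitters' processing notes name STAR 2.7.10a. The counting tool, its strand setting, the build and the gene models were not given in the sources used here, so reads of overlapping, antisense and near-identical genes cannot be told apart. Identifiers were looked up in a RefSeq gene table of assembly Lsat_Salinas_v11 with 51651 genes, and 0 matched.

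Members were found from CPM by column totals with a pseudocount of 1 CPM. The members, the lists and the tests were chosen with earlier results of these data known. The count test was that of edgeR 4.0.16 (R 4.3.3): filterByExpr (minimum count 10, 23413 genes kept), TMM factors (0.961 to 1.03), group means over all 20 libraries without a block, two-sided quasi-likelihood tests, and Benjamini-Hochberg adjustment over all genes tested in each of 10 comparisons, called below 0.05. The common biological coefficient of variation was 0.117. Standard errors were derived from the fold change and its F statistic. The procedure was tested on simulated data. The 19 replicate pairs differed beyond sampling noise (chi-square divided by degrees of freedom 3.54 to 23.8), so none was counted as 1 library. DESeq2 1.42.0 and other settings were alternatives. Genes were named by a rule on extremes: the 2 highest and 2 lowest by difference beside ABA, level and ethanol over water, the 2 greatest interactions, falls beside ACC and gaps, and the gene on each side of a limit; exceptions are stated.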

Additional observations from a re-analysis of the deposited data

Results flagged for a closer look

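A direct test of the peptide's effect beside ABA against its effect beside ACC called 14 of the 131 members (edgeR, adjusted p below 0.05), all higher beside ABA. Over all genes tested, 0.666% were called higher. The rule that chose the genes asks for a rise in one pair and caps it in the other, so the count of 14 is a description. Without ABA replicate 1, 0 members were called, beside 11 calls over all genes. Among the genes named in the text, 3 were called, and their adjusted p-values are likewise a description. The log2 difference of Lsat_1_v5_gn_2_45941 was 2.21 (edgeR adjusted p = 0.0444), that of Lsat_1_v5_gn_4_65101 was 1.85 (adjusted p = 0.0162), and that of Lsat_1_v5_gn_1_114801 was 0.667 (adjusted p = 0.0482). Under 16 alternatives Lsat_1_v5_gn_4_65101 was called in 13, with adjusted p from 0.000814 to 0.0585, Lsat_1_v5_gn_1_114801 in 6 (0.0119 to 0.130) and Lsat_1_v5_gn_2_45941 in 4 (0.00684 to 0.135). All 3 kept their direction, which the rule fixes, under these 16 alternatives.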

How the results depend on the processing

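The rule found 131 genes. A mean of at least 5 CPM left 71, a difference of 0.5 beside ABA left 53, and limits of 0.2 for the single agents left 22. Leaving out each library in turn gave 109 to 232 genes, of which 83 to 128 were members. The highest counts came without CLE12p with ABA replicate 1 (232) and replicate 3 (214), and the fewest members were kept without its replicate 2. TMM factors gave 115 genes with 113 members kept, DESeq2 size factors 122 with 114, a pseudocount of 0.5 CPM 131 with 101, and a pseudocount of 2 CPM 95 with 76. For CLE12p with ABA over ABA, 30 of the 131 members were called as reported above, beside 919 calls in either direction over all genes. The count of members was 46 when only the groups compared were fitted (1112 over all genes) and 42 by DESeq2 (1320). With 1 library left out it was 9 to 33 (381 to 1018). For the interaction with ABA it was 0 in all 18 alternatives, and for ethanol over water 0 in all 9. For CLE12p beside ABA minus beside ACC, alternatives were chosen after seeing the data. They gave 24 without the low-count filter, 26 with only the groups compared, 22 by DESeq2 and 0 to 21 with 1 library left out, against 14. Over all genes the same settings gave 433, 525, 614 and 11 to 491 calls in either direction, against 253. The replicate block gave 27 called beside ABA (799 over all genes) and 11 for beside ABA minus beside ACC (160). It gave 0 for the interaction and for ethanol over water, median log2 fold changes of 0.595 and −0.0897, and a log2 difference of 2.16 (edgeR adjusted p = 0.0597) for Lsat_1_v5_gn_2_45941, which was no longer called. No pairing by replicate number was seen. Same-numbered libraries of 2 groups had correlations of −0.221 to 0.0177 between their deviations from the group means, and 1 of 17 correlated best with its own number. With so few libraries per group, these values cannot show that pairing was absent. Where 1 library was left of ethanol, it was assumed to vary like the other groups. No direction was reversed in the alternatives run, but outside ethanol over water the rule had largely fixed the direction beforehand. For members near 1 CPM, counting error limits what can be resolved.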

Other observations

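With ABA and ACC exchanged, the same rule found 73 genes, and with a fall in place of a rise beside ABA it found 121, against the 131 described. A rise beside ABA of the same size together with a rise of 0.2 or more beside ACC was found in 27 genes. The numbers of these sets were not compared by a test.

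The number that follows gn in the identifier was spread over the members much as over all genes of at least 1 CPM. The most frequent was 4, with 21 members (16.0%, against 13.2% of all genes), and among those with at least 1 member the shares ran down to 7.63% for 3 and for 7 (9.61% and 9.15% of all genes). On neighbouring rows of the table lay 1 pair of members, and 3 pairs were neighbours among genes of at least 1 CPM. No position is read from an identifier.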
